A study of Mus musculus with 9 samples.

Results

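The comparison set 3 arrays of cells carrying mutant IDH1 (IDH1mut) against 3 arrays of cells carrying wild-type IDH1 (IDH1wt), out of 9 arrays in the series. All 17731 genes with an annotated probe set were compared, and the 3 arrays of cells with the empty vector (CTL) served as a reference level. The mRNA of each sample was hybridised to 1 Affymetrix mouse array, and values are log2 expression. In all 3 groups the cells were mouse bone marrow cells, from a strain spelled C57BL6 or C57BJ/6 in the labels, that had been immortalised with HoxA9. A retrovirus then brought in EGFP alone (CTL), pSF91-IDH1wt-IRES-EGFP (IDH1wt) or pSF91-IDH1mut-IRES-GFP (IDH1mut). The infected cells were injected into irradiated syngeneic mice, and GFP-positive cells were sorted from the marrow after 4 weeks. The labels do not name the IDH1 mutation or the species of the insert. They also do not say whether the replicates of a group came from separate recipients, infections or founder clones, so p-values measure only the spread between these samples. An effect of the mutant enzyme and any other difference between the infected populations cannot be told apart in this design.

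Isocitrate dehydrogenase 1 is a cytosolic enzyme that converts isocitrate to 2-oxoglutarate and makes NADPH. Its cancer mutants reduce 2-oxoglutarate to 2-hydroxyglutarate, which inhibits dioxygenases that demethylate DNA and histones, and such mutations occur in acute myeloid leukemia. HOXA9 is a homeobox factor that blocks myeloid differentiation and, with its cofactor MEIS1, drives leukemia in mice. Neutrophil precursors fill primary granules with proteases and myeloperoxidase first, then secondary granules with lactoferrin and related proteins, and switch on receptors of the mature cell last.

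Neutrophil lineage genes gave bright signals on every one of the 9 arrays. By signal, S100a9, a calcium-binding protein of neutrophils, ranked 1, the granule genes Ngp and Camp ranked no lower than 4, myeloperoxidase (Mpo) ranked between 9 and 44 and elastase (Elane) between 134 and 566. Probe sets differ in brightness, so these ranks do not order the genes' mRNA levels or give a share of cells. Values of all genes correlated at 0.9917 to 0.9949 between IDH1wt arrays, at 0.9932 to 0.9944 between IDH1mut arrays, and at 0.9845 to 0.9884 across the groups. The first principal component of the 6 arrays held 51.9% of the variance and placed the IDH1wt arrays between -25.6 and -16.0 and the IDH1mut arrays between 19.5 and 21.5. Mouse Idh1 read 10.70, 10.45 and 10.61 on the IDH1wt arrays and 10.84, 10.52 and 10.56 on the IDH1mut arrays, so the groups overlapped. Its log2 difference, IDH1mut minus IDH1wt throughout, was 0.06 ± 0.11 (SE, n = 3 against 3, adjusted p = 0.79, limma). Whether the probe set reads the insert is unknown, so it checks no label. Hoxa9 read between 3.71 and 4.21 on the IDH1wt arrays and between 3.32 and 3.40 on the IDH1mut arrays, below the array medians. Its difference of -0.54 ± 0.14 passed (adjusted p = 0.0311), but 4 of the 9 arrays could each end the call when omitted (adjusted p as high as 0.088). Whether this probe set reads the introduced HoxA9 is unknown, so its values do not give the level of that HoxA9.

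Cells with mutant IDH1 had more mRNA of late neutrophil and secondary granule genes, of the transcription factors Sall2 and Mecom and of antiviral interferon response genes than cells with wild-type IDH1. They had less mRNA of primary granule proteases, of MHC class II and eosinophil genes and of the cell cycle inhibitor gene Cdkn2a. In all, 2363 of 17731 genes (13.3%) passed an adjusted p of 0.05 in limma's moderated test with Benjamini-Hochberg adjustment, 1160 higher (6.54%) and 1203 lower (6.78%) in IDH1mut. Most differences were small: 1417 of the called genes differed by less than 1.5-fold and 729 by 1.5-fold to 2-fold. At least 2-fold differences were called for 217 genes (1.22%), 127 higher (0.716%) and 90 lower (0.508%), and 19 genes differed at least 4-fold, 14 of them higher. In the words used below, "rose" and "fell" mark genes past the adjusted threshold. The IDH1mut and IDH1wt arrays did not overlap for 5235 of 17731 genes (29.5%) and for 2340 of the 2363 called. Lack of overlap, given for single genes below, is thus a trait of nearly all called genes. The count fell to 1475 without IDH1wt replicate 3 and to 1528 without IDH1mut replicate 2, and 1150 of the 2363 genes passed whichever single array was left out. Monocyte genes were lower on 2 of the 3 IDH1mut arrays. Below, a call that omitting some single array ends is given with the number of such arrays of 9 or the name of the array. List counts of 2 or 3 genes often changed by 1 or more in the same way. Each list count stands beside the 13.3% of all genes called in either direction. Shares from 10.5% to 16.7% were called in the macrophage, early B, stromal, myeloid fate, BCL2, inflammatory, cholesterol, antioxidant, glycolysis and hypoxia lists. Those shares are near that of all genes.

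**Figure D1:**
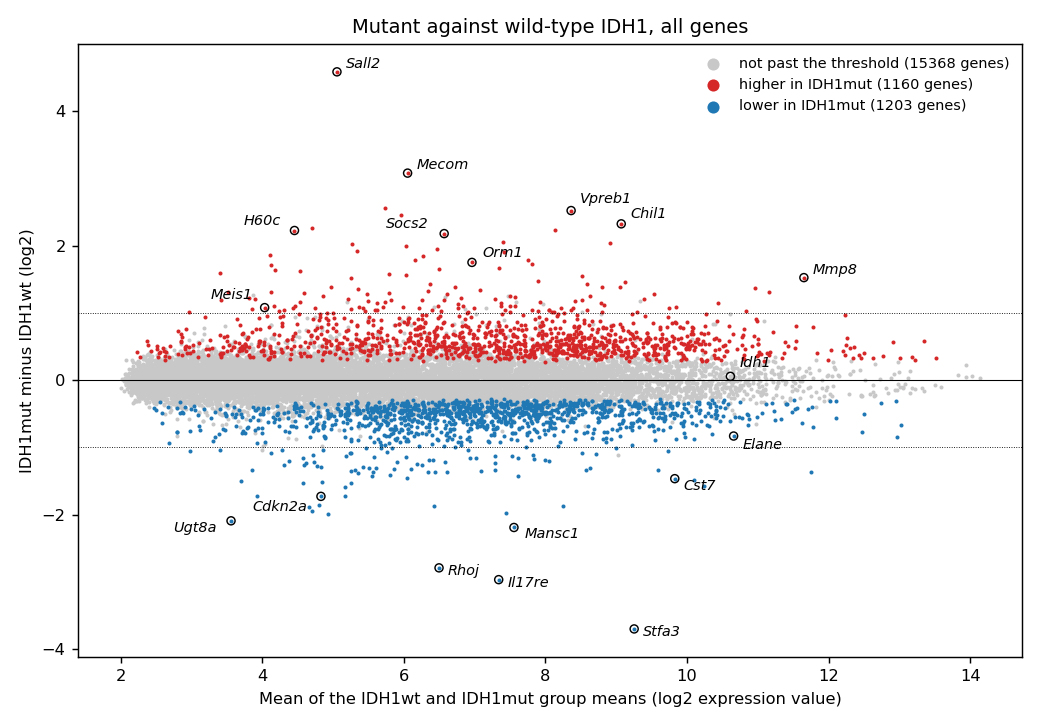
Each point is 1 of 17731 genes, with the mean of the IDH1wt and IDH1mut group means on the x axis and their difference on the y axis, both in log2 units; colours mark the 1160 genes called higher and the 1203 called lower in IDH1mut, and dotted lines mark 2-fold. Sall2 (4.59) and Mecom (3.08) lie highest, Stfa3 (-3.70) lowest, and Idh1 (0.06) lies near the zero line.

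Sall2 and Mecom, both transcription factors, rose furthest. Sall2, a zinc finger protein, read 2.76, 2.58 and 2.94 on the IDH1wt arrays and 7.76, 7.48 and 6.81 on the IDH1mut arrays. The groups lay far apart, with every IDH1wt array near the low end of the scale, at the level of the CTL arrays (2.49 to 2.75). The difference was 4.59 ± 0.20 on the deposited scale (adjusted p = 6.96e-07). The values hold no detection call, so the IDH1wt level of Sall2 may not be above background and no fold is given. Mecom, which encodes the stem cell factor EVI1, read 4.51, 4.17 and 4.86 in IDH1wt and 7.70, 7.63 and 7.46 in IDH1mut. The 3 IDH1mut arrays lay close together, and the CTL arrays (4.38 to 4.97) overlapped IDH1wt. Its difference was 3.08 ± 0.18, or 8.47-fold (adjusted p = 5.89e-06). The IDH1wt mean of Mecom, 4.51, lay below the IDH1wt array medians (4.65 to 4.69), so this fold too is that of the deposited scale.

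Chil1, a chitinase-like protein of neutrophil secondary granules, also had its IDH1mut arrays together and apart from all others. It read 7.92, 7.87 and 7.93 in IDH1wt against 10.16, 10.40 and 10.13 in IDH1mut, with CTL at 7.56 to 7.76. The difference was 2.33 ± 0.10 (5.02-fold, adjusted p = 6.96e-07). Fmnl2, a formin that builds actin filaments, showed the same layout, at 6.18 to 6.51 in IDH1wt and 8.37 to 8.50 in IDH1mut (2.06 ± 0.12, adjusted p = 4.75e-06). So did Dnah6, an axonemal dynein (2.03 ± 0.11, adjusted p = 4.14e-06), and Ovgp1, an oviductal glycoprotein (1.95 ± 0.12, adjusted p = 9.67e-06). Prrt4 rose by 2.56 ± 0.35 (adjusted p = 0.00107), with IDH1mut arrays spread from 6.06 upward.

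Several of the largest rises came with a wide spread inside the IDH1mut group. Socs2, a feedback inhibitor of cytokine signalling, read 5.98, 4.61 and 5.84 in IDH1wt and 6.75, 8.20 and 8.03 in IDH1mut. Replicate 1 of IDH1mut was the lowest of its group but still above every IDH1wt array (2.18 ± 0.39, adjusted p = 0.00418). Tmem178, a membrane protein, read 3.46 to 3.62 in IDH1wt and 4.87 to 7.05 in IDH1mut (2.26 ± 0.46, adjusted p = 0.00839), and its CTL arrays (4.54 to 5.75) lay between and partly within the IDH1mut range. Ddx4, a germ cell RNA helicase, rose by 2.00 ± 0.34 (adjusted p = 0.00332) from a CTL mean of 6.32, which lay nearer to IDH1mut (7.03) than to IDH1wt (5.03). Adtrp, an androgen-dependent regulator of tissue factor pathway inhibitor, rose by 1.92 ± 0.20 (adjusted p = 0.000246).

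Among the largest falls, Rhoj, Mansc1, As3mt and Hnmt were high in both IDH1wt and CTL and low in IDH1mut. Rhoj, a small GTPase, read 8.20, 7.56 and 7.92 in IDH1wt and 4.75, 5.16 and 5.40 in IDH1mut, with CTL between 7.95 and 8.37. It fell by 2.79 ± 0.19 (6.92-fold, adjusted p = 2.37e-05). Mansc1, a membrane protein, fell by 2.19 ± 0.20 (adjusted p = 0.000165), from 8.49 to 8.74 in IDH1wt to between 5.90 and 6.93. As3mt, an arsenite methyltransferase, fell by 1.95 ± 0.19 (adjusted p = 0.000179), and Hnmt, which methylates histamine, did too (-1.87 ± 0.15, adjusted p = 4.22e-05). Vmn2r26, a vomeronasal receptor (-1.99 ± 0.15, adjusted p = 4.22e-05), Ednrb, an endothelin receptor (-1.73 ± 0.23, adjusted p = 0.000891), and Ndnf, a secreted protein of neurons (-1.59 ± 0.17, adjusted p = 0.00031), fell as well, with CTL means between the groups and nearer to IDH1wt.

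A second set of falls had CTL at the IDH1mut level, so that the IDH1wt arrays were the ones that stood apart. Stfa3, a stefin that inhibits cysteine proteases, read 10.90, 11.36 and 11.05 in IDH1wt and 7.44, 7.34 and 7.43 in IDH1mut, and its CTL arrays (7.63 to 8.41) lay far below IDH1wt. The difference of -3.70 ± 0.19 was the largest fall (13-fold, adjusted p = 2.1e-06). Stfa3 has close paralogs in a gene cluster, and the probe set may read more than 1 of them. Il17re, a receptor chain for interleukin 17C, read 9.78, 7.67 and 9.01 in IDH1wt and 5.67, 6.19 and 5.70 in IDH1mut, where CTL (5.32 to 5.70) overlapped IDH1mut (-2.97 ± 0.39, adjusted p = 0.000935). CTL likewise lay nearer to IDH1mut for Ugt8a, which makes galactosylceramide (-2.09 ± 0.32, adjusted p = 0.00209), for Pls3, an actin-bundling plastin (-1.89 ± 0.21, adjusted p = 0.000376), and for Perp, a junction protein and p53 target (-1.85 ± 0.14, adjusted p = 3.2e-05). In Glyat, a glycine acyltransferase (-1.72 ± 0.40, adjusted p = 0.0157), IDH1wt replicate 1 at 5.99 stood above the other IDH1wt arrays (3.78 and 4.60), and the call was lost without IDH1mut replicate 3 (adjusted p = 0.055). In the opposite direction H60c, a ligand of the NKG2D receptor, was low in IDH1wt (3.17 to 3.62), while IDH1mut (5.41 to 5.77) lay within the CTL range of 5.22 to 6.18 (2.23 ± 0.22, adjusted p = 0.000199).

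**Figure D2:**
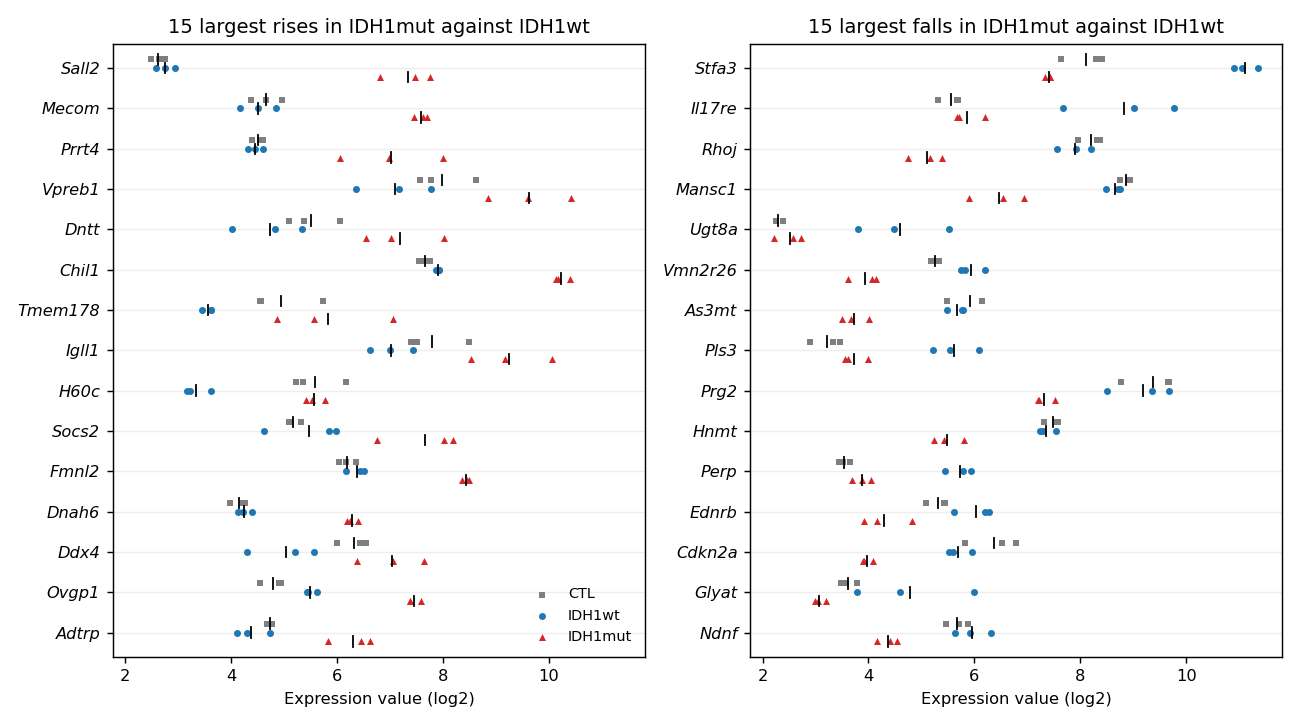
Expression values (log2, x axis) of the 15 genes with the largest rise (left) and the 15 with the largest fall (right) in IDH1mut against IDH1wt, 1 point per array and a black bar at each group mean. CTL lies with IDH1wt for Sall2, Mecom, Chil1, Rhoj and Mansc1 and with IDH1mut for H60c, Il17re, Ugt8a, Pls3 and Perp.

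Over all 2363 called genes the CTL mean was nearer to IDH1wt for 1991 (84.3%) and nearer to IDH1mut for 372 (15.7%). Among all 17731 genes these shares were 62.0% and 38%. For genes called at least 2-fold higher in IDH1mut, CTL was nearer to IDH1wt in 118 of 127 (92.9%, beside 53.3% of all genes with a positive difference). For those at least 2-fold lower it was nearer in 66 of 90 (73.3%), close to the 70.8% of all genes with a negative difference. These positions describe the 9 arrays and were not tested.

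Genes of mature neutrophils rose as a group. In the late neutrophil list 15 of 19 measured members rose and 0 fell, and the members' median difference was 0.51 beside -0.0001 for all genes. Mmp8, neutrophil collagenase, read 10.94, 10.94 and 10.79 in IDH1wt and 12.44, 12.46 and 12.35 in IDH1mut. The groups were separated by more than 1 log2 unit, with little spread in either (1.53 ± 0.14, adjusted p = 0.000143). Anxa1, an anti-inflammatory annexin, rose by 1.57 ± 0.20 (adjusted p = 0.000745), the chemokine Ccl6 by 1.15 ± 0.18 (adjusted p = 0.00225) and the formyl peptide receptor Fpr2 by 0.97 ± 0.11 (adjusted p = 0.000456). The interleukin 8 receptor Cxcr2 (0.82 ± 0.13) and the G-CSF receptor Csf3r (0.51 ± 0.12, a call that 2 arrays ended) also rose. S100a8 and S100a9, already at the top of the scale, did not pass (S100a8 0.05 ± 0.08, S100a9 0.04 ± 0.08). With any single array left out, 10 to 15 members of the list rose.

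Secondary granule genes rose in 11 of 15 measured members and fell in 0, with a median of 0.57. Chil1, described above, led this list. Orm1, an acute phase glycoprotein, read 5.82 to 6.27 in IDH1wt and 7.60 to 8.13 in IDH1mut (1.75 ± 0.18, adjusted p = 0.000204). Olfm4, a granule protein of a neutrophil subset, rose by 1.39 ± 0.15 (adjusted p = 0.000343), and Ceacam10, a secreted carcinoembryonic antigen family member, by 1.28 ± 0.13 (adjusted p = 0.000197). Lactoferrin (Ltf) rose by 0.58 ± 0.09 and the chitinase-like Chil3 by 0.57 ± 0.09. Ngp (0.06 ± 0.08) and Camp (0.23 ± 0.08), both near the top of the scale, did not pass.

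Primary granule and promyelocyte genes moved the other way: 10 of 14 measured members fell and 1 rose, with a median of -0.60. Cst7, cystatin F, read 10.77, 10.39 and 10.52 in IDH1wt and 9.15, 9.14 and, on the lowest array, 9.0 in IDH1mut, with CTL (10.38 to 10.55) at the IDH1wt level (-1.46 ± 0.11, adjusted p = 4.2e-05). Elane, neutrophil elastase, read 11.13, 11.10 and 10.98 in IDH1wt and 10.24, 10.36 and 10.13 in IDH1mut (-0.83 ± 0.11, adjusted p = 0.000891). In both genes the ranges were clear of each other. Nkg7, a granule membrane protein (-1.05 ± 0.10), cathepsin G (Ctsg, -0.84 ± 0.11), proteinase 3 (Prtn3, -0.77 ± 0.08) and myeloperoxidase (Mpo, -0.66 ± 0.08) fell too, each at adjusted p under that of Elane. The member that rose was the ficolin Fcnb (0.53 ± 0.15, adjusted p = 0.0382), whose call 6 arrays ended. In bulk RNA, fewer cells of a stage and less RNA per cell cannot be told apart, here and in the lists that follow.

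Monocyte genes fell in 8 of 17 measured members and rose in 1, with a median of -0.48. The lipopolysaccharide coreceptor Cd14 read 8.87, 8.45 and 8.64 in IDH1wt and 8.11, 7.30 and 7.82 in IDH1mut (-0.91 ± 0.18, adjusted p = 0.00801). Irf8, a transcription factor of monocytes and dendritic cells, fell by 0.87 ± 0.16 (adjusted p = 0.00541), and the M-CSF receptor Csf1r by 0.47 ± 0.14 (adjusted p = 0.0434, a call that 7 arrays ended). F13a1, coagulation factor XIII A (-0.69 ± 0.17, adjusted p = 0.0202), and Ms4a6c (-0.61 ± 0.14, adjusted p = 0.0143) fell with calls that 4 and 2 arrays ended. The member that rose was Lgals3, galectin 3 (0.50 ± 0.12, adjusted p = 0.0161, a call that 2 arrays ended). IDH1mut replicate 1 differed from its group here: the median member lay 0.13 above its own 9-array mean on it, but at -0.46 and -0.34 on replicates 2 and 3, and 0.16 to 0.22 above on the IDH1wt arrays. The members' summed log2 values were 157.4 to 158.1 on the IDH1wt arrays, 157.9 on IDH1mut replicate 1, and 147.4 and 149.7 on the other IDH1mut arrays. Without IDH1mut replicate 1, 11 members fell; without replicate 2, 2 fell, while 3 fell without replicate 3 or IDH1wt replicate 3 and 5 without IDH1wt replicate 2. How far monocyte content accounts for other differences was not tested.

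Macrophage genes showed no common direction, with 3 of 20 lower, 0 higher and a median of 0.08. Those that fell were Gpnmb, a lysosomal glycoprotein (-1.10 ± 0.23, adjusted p = 0.00889), and the scavenger and mannose receptors Cd163 (-0.92 ± 0.16, adjusted p = 0.00349) and Mrc1 (-0.85 ± 0.15, adjusted p = 0.00385). Of 15 dendritic cell and MHC class II genes, 8 fell and 1 rose, at a median of -0.60. Cd209a, a C-type lectin of monocyte-derived dendritic cells, read 8.04, 7.66 and 7.83 in IDH1wt and 6.51, 6.77 and 6.87 in IDH1mut (-1.13 ± 0.12, adjusted p = 0.00031). The antigen presentation genes H2-DMa (-0.79 ± 0.11), Cd74, the invariant chain (-0.83 ± 0.16), H2-Ab1 (-0.72 ± 0.11) and H2-Aa (-0.60 ± 0.14) fell together, as did Tcf4, a factor of plasmacytoid dendritic cells (-0.79 ± 0.15). Flt3, a receptor of early progenitors and dendritic cells, rose by 0.67 ± 0.18 (adjusted p = 0.0298), with a call that 5 arrays ended.

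Eosinophil granule genes were lower in IDH1mut, at 4 of 8 measured members fallen, 1 risen (Cd24a, 0.45, a surface protein of many blood cells, not past the threshold without IDH1mut replicate 2) and a median of -0.74. Prg2, major basic protein, read 8.51, 9.68 and 9.36 in IDH1wt and 7.20, 7.21 and 7.53 in IDH1mut, and CTL (8.78 to 9.68) lay with IDH1wt (-1.87 ± 0.29, adjusted p = 0.00222). The eosinophil lectin Siglecf fell by 1.34 ± 0.14 (adjusted p = 0.000311). Eosinophil peroxidase, Epx (-1.35 ± 0.36, adjusted p = 0.0287), and Prg3 (-0.76 ± 0.21, adjusted p = 0.0347) also fell, with calls that 4 arrays each ended. Without IDH1wt replicate 2, IDH1wt replicate 3 or IDH1mut replicate 2, 2 members of the list fell, and without IDH1wt replicate 2 the median was -0.43. Of 13 mast cell and basophil genes, 3 fell and 0 rose, at a median of -0.40. The basophil protease Mcpt8 (-1.49 ± 0.36, adjusted p = 0.0197), the IgE receptor chain Ms4a2 (-1.30 ± 0.30, adjusted p = 0.0159) and Cd200r3, an activating receptor (-1.11 ± 0.31, adjusted p = 0.0365), were the 3, with calls that 4, 1 and 6 arrays ended. IDH1wt replicate 1 was low in these genes, for instance Mcpt8 at 9.79 against 11.65 and 11.08, and the number called ran from 0 without IDH1wt replicate 3, and 1 without IDH1wt replicate 2 or IDH1mut replicate 1 or 2, to 5 without IDH1wt replicate 1.

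**Figure D3:**
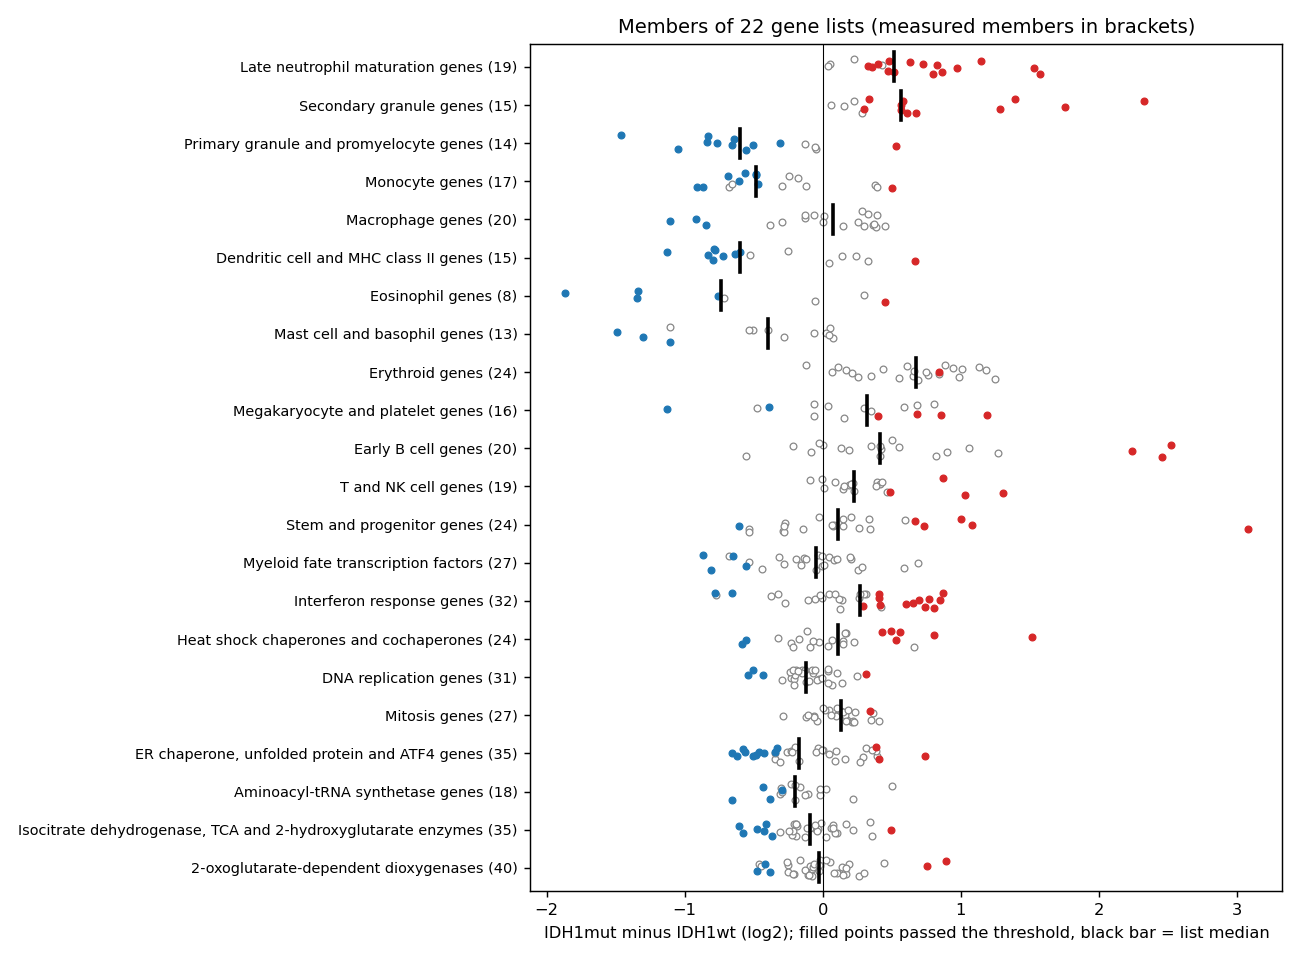
Difference between IDH1mut and IDH1wt (log2, x axis) of each measured member of 22 gene lists, with filled points for members past the threshold and a black bar at the list median. Late neutrophil (0.51) and secondary granule (0.57) medians lie above 0, and primary granule (-0.60), dendritic cell and MHC class II (-0.60) and eosinophil (-0.74) medians below.

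Erythroid genes were high on all 3 IDH1mut arrays, but spread so widely among the IDH1wt arrays that 1 of 24 measured members passed, although 23 of 24 differences were positive and the median was 0.68. Trim10, a factor of erythroid maturation, was the member that rose (0.85 ± 0.25, adjusted p = 0.0491, a call that 6 arrays ended). Rhag, a red cell membrane protein, read 5.70, 7.89 and 6.95 in IDH1wt and 7.97, 8.27 and 8.05 in IDH1mut (1.25 ± 0.40, adjusted p = 0.0608). Carbonic anhydrase 1 (Car1) had the same layout, at 7.61, 9.73 and 8.89 in IDH1wt against 9.79 to 10.02 in IDH1mut (1.18 ± 0.39, adjusted p = 0.067). In these genes IDH1wt replicate 2 thus approached the IDH1mut arrays. Over the list it lay within their range, and IDH1wt replicate 1 lay below CTL. Summed over the list, log2 values were 155.8, 188.3 and 176.1 on the IDH1wt arrays, 186.4 to 192.7 on the IDH1mut arrays and 162.6 to 163.8 on the CTL arrays. Without IDH1wt replicate 2, 14 members rose (median 1.04), and without IDH1wt replicate 1, 0 rose (median 0.29). The count was also 0 without IDH1wt replicate 3, without any of the IDH1mut arrays and without CTL replicate 3. How far erythroid content accounts for other differences was not tested. The probe set of the globin gene Hba-a1 read 3.08 to 3.51 on the arrays compared and did not pass (0.25 ± 0.10, adjusted p = 0.134).

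Megakaryocyte and platelet genes split, with 4 of 16 higher, 2 lower and a median of 0.32, which was 0.11 without IDH1mut replicate 2. Clec1b, the podoplanin receptor of platelets, rose by 1.19 ± 0.18 (adjusted p = 0.00161) and Plek, pleckstrin, by 0.68 ± 0.14 (adjusted p = 0.00993). Itga2b, the platelet integrin αIIb, read 8.12, 8.18 and, on the lowest array, 8.0 in IDH1wt and 6.50, 7.42 and 6.99 in IDH1mut, and fell by 1.13 ± 0.18 (adjusted p = 0.00264). Gp1bb, a chain of the von Willebrand factor receptor, rose by 0.85 ± 0.26 (adjusted p = 0.0492), a call that 7 arrays ended.

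Genes of B cell precursors were among the largest rises, although few members of their list passed. Vpreb1, a surrogate light chain, read 6.36, 7.77 and 7.17 in IDH1wt and 9.61, 8.85 and 10.42 in IDH1mut (2.53 ± 0.42, adjusted p = 0.00296). Igll1, its partner in the pre-B cell receptor, rose by 2.24 ± 0.37 (adjusted p = 0.00305), and Dntt, the terminal transferase that adds nucleotides to receptor joints, by 2.46 ± 0.40 (adjusted p = 0.00252). For each of the 3 the groups did not overlap, IDH1mut replicate 3 was highest and IDH1wt replicate 1 lowest. Vpreb1 has a near-identical copy, Vpreb2, so its value may hold signal of both transcripts. The median over the list was 0.15 without IDH1wt replicate 1, 0.75 without IDH1wt replicate 2 and 0.23 without IDH1mut replicate 3. The rest of the early B list did not pass, at 3 of 20 higher, 0 lower and a median of 0.42. Ebf1, a master factor of B cells, read 2.27, 4.21 and 3.21 in IDH1wt and 4.30, 3.74 and 5.47 in IDH1mut, with overlap (1.27 ± 0.53, adjusted p = 0.151). The members' summed log2 values ran from 100.0 to 121.3 in IDH1wt, from 118.6 to 134.0 in IDH1mut and from 110.4 to 130.8 in CTL.

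Of 19 T and NK cell genes 4 rose and 0 fell, with a median of 0.22, which was 0.35 without IDH1mut replicate 3. All 4 belong to or act with the T cell receptor: the CD3 chains Cd247 (1.31 ± 0.18, adjusted p = 0.001), Cd3g (1.03 ± 0.20, adjusted p = 0.00701) and Cd3d (0.87 ± 0.17, adjusted p = 0.00762), and Cd5 (0.49 ± 0.12, adjusted p = 0.0196, a call that 4 arrays ended). Their levels were low, for instance Cd247 at 3.25 to 3.66 in IDH1wt and 4.50 to 5.21 in IDH1mut, and 10 of the 19 members lay below the array median. Stromal and endothelial genes, a check for other marrow cells in the sort, rose in 1 of 19 (the chemokine Cxcl12, 0.61 ± 0.14, not without IDH1wt replicate 1) and fell in 1 (the adhesion molecule Pecam1, -0.87 ± 0.11), with 13 members below the array median.

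**Figure D4:**
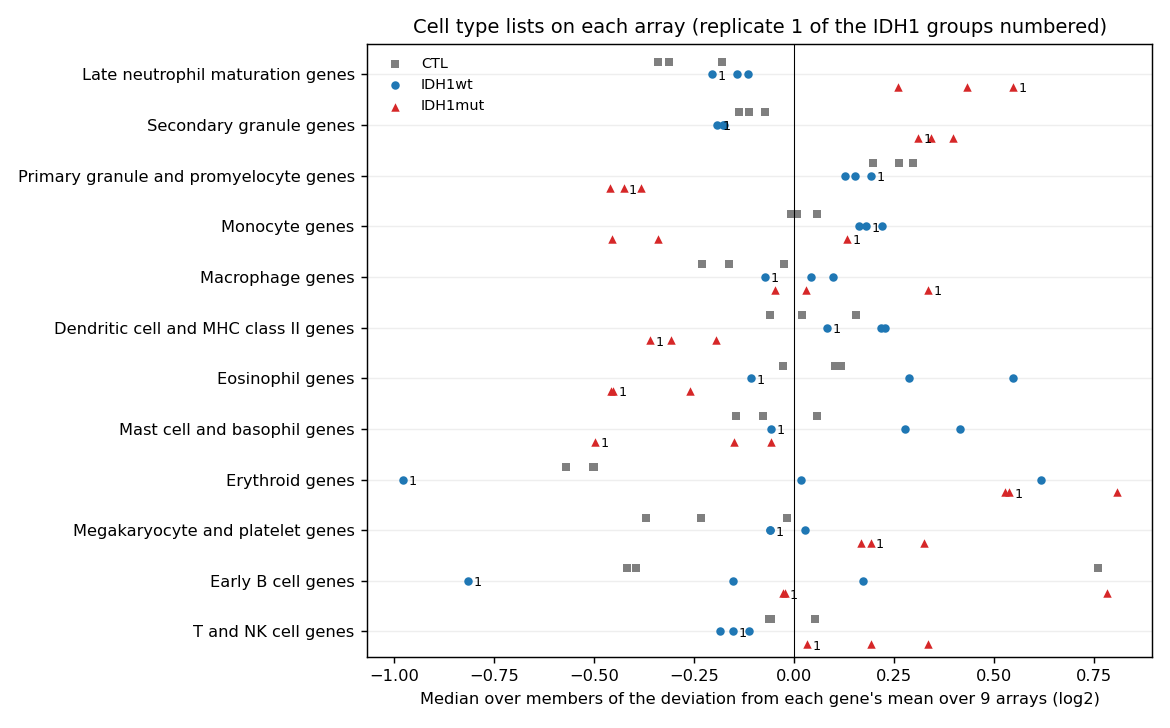
Median over each list's members of the deviation from the gene's mean over 9 arrays (log2, x axis), 1 point per array, for 12 cell type lists; the numeral 1 marks replicate 1 of the IDH1wt and IDH1mut groups. The IDH1mut arrays are clear of the other 6 for the 3 neutrophil lists. They are also clear for the dendritic cell and MHC class II, eosinophil and megakaryocyte and platelet lists. IDH1mut replicate 1 (0.13) lies near IDH1wt for monocyte genes, and the IDH1wt arrays spread from -0.98 to 0.62 for erythroid genes.

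Of 24 stem and progenitor genes 5 rose and 1 fell, at a median of 0.11. Omitting 1 array moved the median between 0.047 (IDH1wt replicate 2) and 0.21 (IDH1mut replicate 1), and without IDH1mut replicate 3, 3 members fell. Besides Mecom, the members that rose were Meis1, Slamf1, Prom1 and Flt3. Meis1, the HOXA9 cofactor, read 3.37, 3.42 and 3.69 in IDH1wt and 4.55, 4.26 and 4.92 in IDH1mut, a clear separation at a level under the array median (1.08 ± 0.16, adjusted p = 0.00161). Slamf1, the stem cell surface protein CD150, rose by 1.00 ± 0.18 (adjusted p = 0.00467) and Prom1, CD133, by 0.74 ± 0.13 (adjusted p = 0.00414). Cd34 (-0.14 ± 0.12) and Kit (-0.28 ± 0.12), receptors and markers of progenitors, did not pass. Among Hox-A genes and their cofactors, 3 of 16 rose and 2 fell: besides Meis1 and Hoxa9, the homeobox cofactor Pknox1 rose by 0.80 ± 0.14 (adjusted p = 0.00382) and Pbx3, which pairs with HOXA9, fell by 0.75 ± 0.16 (adjusted p = 0.011). The limits given above for the Hoxa9 probe set apply here too.

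Of 27 myeloid fate transcription factor genes 4 fell and 0 rose (14.8% called, beside 13.3% of all genes). Besides Irf8 these were Cebpa, which granulocyte precursors need (-0.55 ± 0.09, adjusted p = 0.00344), Runx3 (-0.65 ± 0.10, adjusted p = 0.00183) and Irf4 (-0.81 ± 0.21, adjusted p = 0.0251, a call that 4 arrays ended). Spi1, encoding PU.1, read 9.92 to 10.03 in IDH1wt and 10.16 to 10.37 in IDH1mut and did not pass (0.28 ± 0.09, adjusted p = 0.0652). Id2, an inhibitor of E proteins, read 5.97, 6.95 and 6.47 in IDH1wt and 8.27, 8.33 and 8.52 in IDH1mut (1.91 ± 0.21, adjusted p = 0.000314), whereas the E protein gene Tcf12 fell by 0.44 ± 0.11 (adjusted p = 0.028, a call that 5 arrays ended).

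Cdkn2a, which encodes p16INK4a and p19ARF, was the cell cycle gene that moved furthest. It read 5.96, 5.6 and 5.52 in IDH1wt and 4.10, 3.89 and 3.91 in IDH1mut. The CTL mean was higher still (6.38, against 5.69 in IDH1wt), but the CTL arrays (5.83 to 6.78) overlapped IDH1wt. The fall was 1.73 ± 0.21 (3.31-fold, adjusted p = 0.000506), and it passed whichever array was left out. The IDH1mut values lay below the IDH1mut array medians (4.66 to 4.70) and hold no detection call, so the fold is that of the deposited scale. The neighbouring inhibitor gene Cdkn2b (-0.17 ± 0.11, adjusted p = 0.35) and Cdkn1a, encoding p21 (0.08 ± 0.11, adjusted p = 0.707), did not pass. In the list of CDK inhibitors, cyclins and CDKs, 3 of 16 rose and 3 fell, among them p27 (Cdkn1b, 0.58 ± 0.12, adjusted p = 0.01), cyclin E1 (Ccne1, 0.56 ± 0.17, adjusted p = 0.0484, a call that 8 arrays ended) and Cdk6 (-0.60 ± 0.14, adjusted p = 0.0162). Without replicate 1 or 3 of IDH1wt or replicate 2 or 3 of IDH1mut, 1 gene of this list rose. DNA replication genes passed in 4 of 31 (1 higher, 3 lower) and mitosis genes in 1 of 27, close to the 13.3% of all genes for the first and under it for the second. Pold1 (-0.54 ± 0.08, adjusted p = 0.00221) and Pole (-0.51 ± 0.10, adjusted p = 0.00727), catalytic subunits of the replicative DNA polymerases, fell, as did E2f1 (-0.43 ± 0.10, adjusted p = 0.0122). The proliferation marker Mki67 (-0.10 ± 0.14, adjusted p = 0.699) and Pcna (0.07 ± 0.08, adjusted p = 0.683) did not pass.

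Of 32 interferon response genes, 12 rose and 2 fell, with a median of 0.27. Without IDH1mut replicate 1, 4 fell and the median was 0.18. Ifit3, an antiviral RNA-binding protein, read 7.13, 7.17 and 7.19 in IDH1wt and 8.36, 7.97 and 7.78 in IDH1mut (0.87 ± 0.13, adjusted p = 0.00192). Rsad2, viperin, read 9.74, 9.95 and 9.88 against 10.82, 10.62 and 10.54 (0.81 ± 0.11, adjusted p = 0.000987). In both genes the groups were clear of each other and CTL was lower than either, at 6.33 to 6.51 for Ifit3 and 9.17 to 9.41 for Rsad2. Oasl2, an oligoadenylate synthetase-like protein, rose by 0.85 ± 0.13 (adjusted p = 0.00188) and Ifit1 by 0.74 ± 0.11 (adjusted p = 0.00157). Against them Bst2, tetherin, fell by 0.78 ± 0.16 (adjusted p = 0.00808) and Gbp3, a guanylate-binding protein, by 0.66 ± 0.13 (adjusted p = 0.0065). Bst2 is also a plasmacytoid dendritic cell marker and stands in the dendritic cell list. Mx1 (0.26 ± 0.15), Irf7 (0.31 ± 0.13) and Cxcl10 (0.14 ± 0.15) did not pass.

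Promoters of members that rose, fell or did not pass held the core of the interferon-stimulated response element. This core was searched on either strand as GAAA, any 2 letters and GAAA again. It was present within 250 bases before to 50 bases after the start in 16 of 24 list members with a sequence (66.7%), beside 425 of all 14033 measured genes with one (3.03%). Of the list members that rose, 6 of 9 with a sequence held it (66.7%), the same share as in the list. Holders that did not pass included Stat2 and Cxcl10. Of genes called higher 39 of 957 (4.08%) held it and of genes called lower 33 of 985 (3.35%). Stretches of 60 bases from RefSeq (GRCm38.p6) show it in capitals for Ifit3 (chr19:34583382-34583441, plus strand) and Rsad2 (chr12:26456538-26456597, minus strand), which rose, and for Bst2 (chr8:71537562-71537621, minus strand) and Gbp3 (chr3:142559980-142560039, plus strand), which fell. All run 5′ to 3′ on the gene's strand, and TTTC, any 2 letters and TTTC is the same core on the other strand.
Ifit3: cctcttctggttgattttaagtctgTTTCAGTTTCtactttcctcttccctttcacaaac
Rsad2: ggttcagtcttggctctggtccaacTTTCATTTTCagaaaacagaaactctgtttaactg
Bst2: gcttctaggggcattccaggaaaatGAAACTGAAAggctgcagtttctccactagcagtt
Gbp3: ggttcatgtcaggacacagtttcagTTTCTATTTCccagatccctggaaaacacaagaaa
A match describes the letters in this window and shows no binding. The motif was thus found on both sides of the comparison and in members that did not pass.

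The heat shock gene Hspa1b was far below CTL in both IDH1 groups. This inducible HSP70 read 3.91, 5.15 and 4.44 in IDH1wt, 6.22, 5.48 and 6.35 in IDH1mut and 9.46 to 9.78 in CTL. The difference between the IDH1 groups was 1.52 ± 0.28 (adjusted p = 0.00572), and its near-identical copy Hspa1a did not pass (0.66 ± 0.20, adjusted p = 0.0563), so the separate values are uncertain. Among heat shock chaperones and cochaperones 6 of 24 rose and 2 fell, at a median of 0.11. Hspa8, the constitutive HSC70, rose by 0.80 ± 0.13 (adjusted p = 0.00288), and Bag3, its cochaperone, fell by 0.59 ± 0.13 (adjusted p = 0.0118). Dnajb6 (0.56 ± 0.15, adjusted p = 0.0328) and Hsph1 (0.53 ± 0.13, adjusted p = 0.02) rose, each with a call that 4 arrays ended. Without IDH1wt replicate 3 or IDH1mut replicate 2, 3 members of the list rose, and without IDH1mut replicate 3, 2 rose. The heat shock element, searched on both strands as GAA, any 2 letters, TTC, any 2 letters and GAA, was in the windows of 4 of 20 members with a sequence (20%) and of 65 of 14033 genes (0.463%). Dnajb6 (chr5:29735827-29735889, plus strand, GRCm38.p6) and Hsph1 (chr5:149636287-149636325, minus strand) were the 2 of the 4 that rose, and their stretches show it in capitals.
Dnajb6: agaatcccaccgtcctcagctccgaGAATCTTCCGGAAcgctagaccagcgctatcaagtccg
Hsph1: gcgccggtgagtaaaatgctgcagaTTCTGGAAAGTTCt
The other two, Hspe1 and Chordc1, did not pass, and the share of holders was 0.418% among genes called higher.

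Of 23 immediate early genes 5 rose and 2 fell, and without IDH1wt replicate 3, 3 rose. For the AP-1 gene Jun CTL stood apart from both groups: it read 7.99, 7.91 and 7.91 in IDH1wt, 7.57, 7.01 and 6.90 in IDH1mut and 9.61 to 9.88 in CTL (-0.78 ± 0.16, adjusted p = 0.00796). Btg2, an antiproliferative gene (0.77 ± 0.12), Klf6, a zinc finger factor (0.77 ± 0.11), and Zfp36, which destabilises cytokine mRNA (0.61 ± 0.11), rose. Egr1 (-0.03 ± 0.21, adjusted p = 0.944) did not pass. Fos read 11.66 on IDH1mut replicate 1 beside 10.27 and 10.50 on the others and 9.78 to 10.22 in IDH1wt (0.83 ± 0.28, adjusted p = 0.0789). Among ERK feedback genes 3 of 19 rose and 2 fell. Spry2, which restrains receptor kinases, fell by 0.88 ± 0.16 (adjusted p = 0.00531), and the ERK phosphatase gene Dusp6 rose by 0.48 ± 0.10 (adjusted p = 0.0105).

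Cytokine signalling genes changed in both directions. In the JAK-STAT list 4 of 24 rose and 4 fell: beside Socs2, the feedback inhibitor Cish rose by 0.55 ± 0.12 (adjusted p = 0.00999), whereas Socs7 (-0.61 ± 0.11, adjusted p = 0.00461) and the kinase gene Jak3 (-0.55 ± 0.09, adjusted p = 0.0037) fell. Among hematopoietic cytokine receptors 6 of 32 rose and 9 fell, led by Il17re. Il1r2, the decoy receptor of interleukin 1 found on neutrophils, read 8.69, 8.87 and 8.82 in IDH1wt and 10.23, 9.98 and 9.81 in IDH1mut (1.22 ± 0.12, adjusted p = 0.000208). Il6st, gp130, read 8.35, 8.44 and 8.50 against 7.63, 6.86 and 7.28 (-1.17 ± 0.16, adjusted p = 0.00112), and the interleukin 3 receptor chain Il3ra fell by 0.85 ± 0.13 (adjusted p = 0.00198). For these 3 genes no array of either group entered the range of the other. Chemokine and receptor genes rose in 6 of 28 and fell in 2, with Ccr1 up by 0.69 ± 0.11 (adjusted p = 0.00304) and Ccl9 down by 0.68 ± 0.20 (adjusted p = 0.0424), a call that 7 arrays ended. Without IDH1wt replicate 3 or IDH1mut replicate 2, 3 receptor genes rose and 5 fell, and without IDH1wt replicate 1, 3 chemokine list genes rose and 0 fell. The inflammatory list had 3 of 26 higher and 1 lower, among them the IκB family gene Nfkbiz (0.77 ± 0.12, adjusted p = 0.00224) and Tnf (0.47 ± 0.10, adjusted p = 0.00844).

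Of 36 adhesion genes 9 fell and 5 rose, and without IDH1wt replicate 3, 3 rose. E-cadherin (Cdh1) read 5.82, 7.59 and 6.92 in IDH1wt and 5.13 to 5.54 in IDH1mut (-1.46 ± 0.33, adjusted p = 0.0153), and the desmosomal Dsp, at 7.52 to 7.86 in CTL, read 6.60, 5.16 and 6.15 in IDH1wt and 3.84, 5.06 and 5.02 in IDH1mut (-1.33 ± 0.36, adjusted p = 0.0323). The collagen-binding integrin chain Itga1 rose by 1.34 ± 0.32 (adjusted p = 0.0184). The calls of these 3 genes were ended by 1, 3 and 3 arrays. In the stefin and cystatin list, chosen around Stfa3, 4 of 6 members fell, among them Stfa2l1 (-0.50 ± 0.13, adjusted p = 0.0308, a call that 5 arrays ended), and 2 fell without IDH1wt replicate 2 or 3 or IDH1mut replicate 3. In the Bex and Tceal family, Bex1 was high in both IDH1 groups (4.87 to 6.61 in IDH1wt and 4.50 to 6.88 in IDH1mut) and low in CTL (2.03 to 2.57), with no difference past the threshold (-0.14 ± 0.53, adjusted p = 0.908). Lrmda, a melanocyte differentiation gene, likewise read 8.10 to 8.32 and 7.35 to 8.10, against 4.18 to 4.56 in CTL (-0.48 ± 0.17, adjusted p = 0.094).

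Isocitrate dehydrogenase, TCA cycle and 2-hydroxyglutarate enzymes passed in 7 of 35 members, 1 higher and 6 lower, with a median of -0.09. Idh2, the mitochondrial counterpart of IDH1, read 9.20, 8.90 and 9.09 in IDH1wt and 8.61, 8.57 and 8.60 in IDH1mut, with CTL at 9.24 to 9.28 (-0.47 ± 0.10, adjusted p = 0.00814). Fumarase (Fh1) read 10.64, 10.38 and 10.47 against 9.99, 9.79 and 9.89 (-0.61 ± 0.10, adjusted p = 0.00285). The falls were 1.39-fold and 1.52-fold, with the groups clear of each other. Phgdh, of serine synthesis, fell by 0.58 ± 0.11 (adjusted p = 0.00572) and the aspartate aminotransferase Got1 rose by 0.50 ± 0.11 (adjusted p = 0.0104). D2hgdh, which oxidises D-2-hydroxyglutarate, did not pass (0.09 ± 0.10, adjusted p = 0.64).

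The 2-oxoglutarate-dependent dioxygenases passed in 5 of 40 members, 2 higher and 3 lower, or 12.5% beside 13.3% of all genes. The histone demethylase genes Kdm6a (0.90 ± 0.21, adjusted p = 0.0154) and Kdm7a (0.76 ± 0.16, adjusted p = 0.0105) rose, the first with a call lost without IDH1mut replicate 3 (adjusted p = 0.0594). Kdm2b (-0.47 ± 0.10, adjusted p = 0.0116), the prolyl hydroxylase subunit P4hb (-0.42 ± 0.10, adjusted p = 0.0181) and the HIF prolyl hydroxylase Egln1 (-0.38 ± 0.10, adjusted p = 0.0242) fell, the last 2 with calls that 2 and 3 arrays ended. P4hb, counted among the 40, is the non-catalytic subunit and not itself a dioxygenase. Tet1 (-0.45 ± 0.19), Tet2 (-0.22 ± 0.12) and Tet3 (0.44 ± 0.18), which oxidise 5-methylcytosine, did not pass. In the list of DNA methyltransferases, Polycomb and Trithorax genes 6 of 29 fell and 0 rose, among them Dnmt1, the maintenance methyltransferase (-0.39 ± 0.09, adjusted p = 0.017), and the Polycomb genes Phc1 (-0.40 ± 0.08, adjusted p = 0.00985) and Phc2 (-0.46 ± 0.09, adjusted p = 0.00706). This list is unstable: 2 or 3 members fell when any single array but IDH1wt replicate 1 was omitted, and Dnmt1 was ended by 2 arrays. Hypoxia and HIF genes passed in 3 of 28, 1 higher and 2 lower, and 0 fell without IDH1wt replicate 1 or IDH1mut replicate 1 or 3.

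Genes of protein synthesis and folding fell more often than they rose, by small amounts. In the endoplasmic reticulum, unfolded protein and ATF4 list 10 of 35 fell and 3 rose, with Pdia3, a disulfide isomerase (-0.66 ± 0.09, adjusted p = 0.00122), and Sdf2l1, a chaperone partner (-0.62 ± 0.12, adjusted p = 0.00808), down and Chac1, a glutathione-cleaving ATF4 target (0.74 ± 0.12, adjusted p = 0.00245), up. Aminoacyl-tRNA synthetase genes fell in 4 of 18, led by Nars (-0.66 ± 0.09, adjusted p = 0.00132), MYC target and ribosome biogenesis genes in 8 of 33 with 2 higher, and ribosomal protein genes in 4 of 26 with 1 higher. Myc itself fell by 0.37 ± 0.10 (adjusted p = 0.0281), a call that 4 arrays ended, and its partner Max rose by 0.57 ± 0.08 (adjusted p = 0.00157). Omitting 1 array took the falls to as few as 6 in the endoplasmic reticulum list (IDH1wt replicate 1 or IDH1mut replicate 2), 2 among synthetases (IDH1wt replicate 3 or IDH1mut replicate 3), 3 in the MYC list (IDH1wt replicate 3) and 2 among ribosomal proteins (IDH1wt replicate 1 or 3). Proteasome genes passed in 4 of 37 and oxidative phosphorylation genes in 6 of 43, shares near the 13.3% of all genes, and omitting IDH1wt replicate 1 or 3 or IDH1mut replicate 2 or 3 left 1 member fallen in each. Lysosome genes fell in 5 of 32 (8 without IDH1mut replicate 1, 3 without IDH1mut replicate 2) and rose in 1: the glycosidase genes Gaa (-0.88 ± 0.09, adjusted p = 0.000246) and Glb1 (-0.63 ± 0.09, adjusted p = 0.00177) fell and Man2b1 (0.59 ± 0.11, adjusted p = 0.00456) rose.

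Among p53 targets 4 of 22 rose and 2 fell. The death receptor gene Fas read 7.28, 7.17 and 7.15 in IDH1wt and 8.34, 8.15 and 8.02 in IDH1mut (0.97 ± 0.10, adjusted p = 0.000246), and the DNA repair gene Ddb2 rose by 0.86 ± 0.13 (adjusted p = 0.0016). Perp, described above, was the largest fall of this list, at a CTL level near IDH1mut. BCL2 family genes fell in 2 of 14, Bmf (-0.53 ± 0.13, adjusted p = 0.0207) and Bak1 (-0.42 ± 0.10, adjusted p = 0.0209), with calls that 3 and 4 arrays ended, so that 0 fell without IDH1wt replicate 3 or IDH1mut replicate 2. Pentose phosphate and glycolysis genes rose in 4 of 24, with the lactate transporter Slc16a3 (0.51 ± 0.12, adjusted p = 0.0182) and transketolase, Tkt (0.40 ± 0.10, adjusted p = 0.0259), up. These calls were ended by 1 and 4 arrays, and without IDH1wt replicate 1, 0 genes of the list rose. Antioxidant genes split, with glutathione reductase (Gsr, 0.51 ± 0.10, adjusted p = 0.00772) up and the glutathione transferase Gstm1 (-0.64 ± 0.11, adjusted p = 0.00349) down among 2 higher and 3 lower of 31. Of cholesterol and SREBP genes 1 of 26 rose and 3 fell, with fatty acid synthase (Fasn) down by 0.61 ± 0.11 (adjusted p = 0.00371), and 1 fell without IDH1wt replicate 3 or IDH1mut replicate 2. Xist, the X inactivation transcript, was high in both groups and fell by 0.69 ± 0.11 (adjusted p = 0.00286), from 10.17 to 10.50 in IDH1wt to 9.53 to 9.67 in IDH1mut.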

How the data were processed

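The values used were log2 expression values per probe set in the authors' deposited table, made with RMA per the submitters' processing notes, with no version given. The log2 scale was read from the values. Biotin-labelled target was prepared from 3 µg of RNA per sample, per the labels' protocols. Of 20877 probe sets, 17815 had 1 gene symbol in the platform annotation, 244 had several and 2818 none; the last 2 kinds were left out. Where several probe sets named the same gene, the brightest by its 9-array mean stood for it, which left 17731 genes. Affymetrix values have no counts, so the number of arrays limits the precision.

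Group means were estimated in limma 3.58.1 (R 4.3.3) from the 9 arrays together, so that the CTL arrays informed the spread. The contrast IDH1mut minus IDH1wt was tested two-sided with moderated variances, and p-values were adjusted by Benjamini-Hochberg over all genes, with a threshold of 0.05. Values after ± are standard errors. On simulated data of 17731 genes with 200 altered, the test found 38% of those altered by 0.5 (log2), 92% of those by 1, 96% by 2 and 100% by 3, and 10 of 173 calls were false. The simulated noise was independent between genes, and far fewer genes were altered than were called in the data. These rates therefore may not hold for the data.

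The 48 gene lists and the comparison were chosen with earlier results of these data known. Lists were described by counts and medians only. Genes named were the 15 largest rises and the 15 largest falls without overlap between the groups' arrays, up to 4 leading members of each list, and Idh1, Idh2, Hoxa9, Meis1, Cdkn2a, Cdkn2b, Cdkn1a, Mecom, Sall2, Lrmda, Bex1, Hspa1a, Hspa1b and Xist. Other genes named were chosen after their values were seen. Promoter windows of 300 bases came from RefSeq (GRCm38.p6). Windows were matched to 14033 genes by gene ID, and the first of several windows was used for 2598. Alternatives covered the choice of probe set, a filter on low values, normalization, the arrays fitted, the variance model, a fold threshold in the test, replicate numbers as blocks and each array left out.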

Additional observations from a re-analysis of the deposited data

How the results depend on the processing

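The count of 2363 called genes fell to 108 (66 higher, 42 lower) when limma's treat asked for a log2 difference beyond 0.5, and that of genes at least 2-fold apart fell from 217 to 102 (61 higher, 41 lower). Leaving out each array in turn gave 1475 to 2193 called genes (1475 without IDH1wt replicate 3, 1528 without IDH1mut replicate 2) and 192 to 258 at least 2-fold. The remaining alternatives that counted genes gave 1662 (6 arrays alone) to 2821 (intensity trend and robust variances) called. At least 2-fold apart were 163 (unmoderated test) to 221 (array weights). The fit of all probe sets one by one counted probe sets, not genes, and gave 2532 and 245. The replicate numbers did not pair the arrays (correlations of same-numbered deviations 0.019, -0.061 and 0.007), and with the replicate block 2035 genes were called, 1936 of them shared. No named gene changed sign under these alternatives while called in either fit. Of the named genes' values 3636 kept their side of the threshold, 505 lost the call and 23 gained it. A sign change of a gene called in neither fit was counted as kept. List medians kept within the replicate spread in 895 values and moved beyond it in 65. That spread comes from the same arrays, so omitting 1 of them could seldom move a median beyond it. Lists with a wide spread were counted as kept most easily. The erythroid median, for instance, ran from 0.29 to 1.04 with single arrays omitted and was counted as kept. The 895 are thus no measure of stability. Omitting CTL arrays or changing the variance moderation, the test's fold threshold or the replicate block cannot move a difference or a median. Nor can fitting all probe sets one by one, where each gene kept its probe set. The values of those settings are among the 895 and could not have moved. Averaging a gene's probe sets could change only the 82 genes with several, and centring arrays on their median shifted all genes alike. Counts or medians of several lists, among them the erythroid, monocyte, eosinophil, mast cell and early B lists, depend on single arrays, as given above. Differences of dim genes are compressed, and the values carry no detection call.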

Other observations

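Genes beside Mecom, Sall2 and Cdkn2a on the chromosome were looked at for shared movement, taking the 5 nearest measured genes on each side. Of 10 neighbours of Mecom 0 rose and 1 fell, the ribosomal protein-like gene Rpl22l1 (-0.43 ± 0.10, adjusted p = 0.0151). Beside Sall2, 2 of 10 rose: Mettl3, which methylates adenosine in mRNA (0.32 ± 0.09, adjusted p = 0.0323), and the T cell receptor segment Trav9d-3 (0.63 ± 0.10, adjusted p = 0.00229). None of the 10 measured neighbours of Cdkn2a passed, Cdkn2b and Mtap, a methylthioadenosine phosphorylase, included.

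Probe sets without a single gene symbol, 3062 in number, passed in 252 cases (8.23%) in the fit of all probe sets one by one, beside 2280 of 17815 probe sets with a single symbol (12.8%) in the same fit. They were given no gene.

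The GATA letters AGATAA, on either strand, stood in the promoter windows of 8 of 18 erythroid list members with a sequence (44.4%) and of 1129 of 14033 genes (8.05%). Among genes called higher the share was 7.11%, and among genes called lower 6.9%.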
